A study of Homo sapiens with 23 samples.

Results

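Interferon-stimulated effector genes are the genes whose products carry out the antiviral and immune programme that interferons switch on. The group described here was a list of 47 gene symbols, picked by gene name rather than by a threshold on values, though earlier results of these data were known when it was drawn up. A gene was measured through probes annotated with its symbol that had a detection p under 0.05 on at least 5 of 23 arrays, and its brightest such probe was used. By that rule 41 of the 47 genes were measured, out of 10954 genes measured in all. The platform annotation names no probe for USP18. The probes of CMPK2, EPSTI1, MX2, RSAD2 and XAF1 were detected on at most 1 array, so these 5 genes have no level here.

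Type I and type III interferons signal through cell-surface receptors and JAK kinases to a transcription factor complex that contains IRF9. This complex binds a DNA element in target promoters, the interferon-stimulated response element, and the related factor IRF1 recognises similar letters. Type II interferon acts mainly through a different element, the gamma-activated site. Epithelial cells, including mammary epithelium, carry these receptors and express many of the target genes at a low level in the absence of infection.

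Total RNA was profiled on Illumina bead arrays. The cells were MCF10A/ErbB2*, an ErbB2-engineered derivative of MCF10A, and MCF10A WT, an immortalised human mammary epithelial line that does not form tumours. The labels describe neither the ErbB2* construct nor whether the derivative is a single clone, and they give no detail of the 3D culture. The ErbB2* line was profiled on 6 arrays from 3D and 6 from 2D culture, and the WT line on 5 from 3D and 6 from 2D. Whether replicates were separate cultures is not labelled, so p-values measure a spread between arrays that may be technical in origin, and the small number of arrays limits precision.

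One array stood apart. WT 3D replicate 5 had 17 of the 41 genes detected, against 34 to 41 on the other 22 arrays, and 19.1% of its probes detected, against 30.9% to 34.6%. Its cell line label names ErbB2*, while 3 other labels of it place it with WT cells in 3D. It was kept with WT 3D, and counts of calls that change without it are also given so. Within WT 2D, replicates 1, 5 and 6 lay above replicates 2, 3 and 4 for 7 of the 41 genes (IFIH1, UBE2L6, GBP1, BST2, PARP14, ISG20 and LAP3) and below them for 6 (OAS1, OAS3, OASL, HERC6, IFITM3 and LGALS3BP). These were 17.1% and 14.6% of the genes, against 17% and 13.7% of all genes measured.

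The promoters of 8 genes of the group are given here as examples with and without a match to the letters searched for the response element. RefSeq promoter windows (GRCh38.p14, 250 bases before to 50 after a start) were found for 39 of the 47 genes. MX2, OASL, OAS2, IFITM2, USP18, GBP2, IFIT2 and TRIM22 had no window in the table used. The response element was searched as GAAA, any 2 bases, GAAA on both strands, with overlapping matches counted. At least 1 window held it in 29 of the 39 genes (74.4%), against 4.38% of the 27305 genes in the table, and 15 of the 39 held it more than once. Per window, 63% of the 54 windows of the group held it, against 3.57% of all 35116. The gamma-activated site, searched as TTC, any 3 bases, GAA, was in 11 of the 39 genes (28.2%), against 9.38% of all genes. Each stretch below ends upstream of the start, runs 5′ to 3′ on the strand of the gene, and has the response element letters of either strand in capitals.
IFI27: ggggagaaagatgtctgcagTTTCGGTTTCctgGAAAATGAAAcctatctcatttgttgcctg
IFI6: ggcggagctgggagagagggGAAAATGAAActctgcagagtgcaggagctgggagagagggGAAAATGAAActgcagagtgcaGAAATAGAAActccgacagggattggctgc
ISG15: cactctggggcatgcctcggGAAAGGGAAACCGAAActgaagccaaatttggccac
IFIT3: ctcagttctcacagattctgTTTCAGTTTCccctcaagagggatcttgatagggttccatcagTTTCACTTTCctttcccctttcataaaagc
IFITM1: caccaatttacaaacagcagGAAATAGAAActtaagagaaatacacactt
IFITM3: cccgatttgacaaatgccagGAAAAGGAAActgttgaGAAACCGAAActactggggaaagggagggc
OAS1: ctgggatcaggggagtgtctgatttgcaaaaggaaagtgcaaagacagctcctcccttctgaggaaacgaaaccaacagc
UBE2L6: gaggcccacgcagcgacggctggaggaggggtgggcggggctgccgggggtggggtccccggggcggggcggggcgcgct

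On GRCh38.p14 the IFI27 stretch is chr14:94110608-94110670 (+ strand) and the IFI6 stretch chr1:27672256-27672368 (- strand). ISG15 is shown at chr1:1013364-1013419 (+) and IFIT3 at chr10:89332415-89332507 (+), ahead of the downstream one of its 2 listed starts. The neighbours IFITM1 and IFITM3 lie at chr11:313980-314029 (+) and chr11:320866-320932 (-). OAS1 is shown at chr12:112906882-112906961 (+) and UBE2L6 at chr11:57567673-57567752 (-). In IFI27 the 2 matches lie on opposite strands and in ISG15 the 2 matches overlap. The windows of OAS1 and UBE2L6 did not hold the searched letters, which says only that these exact letters are absent from those windows. The OAS1 stretch does hold GAAA, a single base and GAAA, a spacing that the search did not count.

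Most of the 41 measured effector genes were higher in ErbB2* cells than in WT cells by the test, 24 in 2D and 28 in 3D, with 19 higher in both, and none was lower in either culture. In 2D 58.5% were higher, against 7.78% of all genes measured, and 0 were lower, against 5.33% of all genes. In 3D 68.3% were higher, against 11.6% of all genes, and 0 were lower, against 10.7%. The test was limma's moderated test over all 10954 genes with Benjamini-Hochberg adjustment at 0.05. At an unadjusted p under 0.05, 28 genes passed in 2D and 29 in 3D, in either direction. The median log2 difference of the 41 genes was 0.87 in 2D and 0.81 in 3D, against 0.012 and 0.038 over all genes. With the authors' deposited log2 values these medians were 0.53 and 0.25, and without background correction 0.69 and 0.48. IFIT2, MX1, OAS2, OASL and SAMD9L were detected on fewer than 5 WT arrays and met the detection rule only through ErbB2* arrays, so a difference was partly built into their choice. Of the other 36 genes 20 were higher in 2D and 24 in 3D, and with no detection rule 23 and 25 of 46. Without WT 3D replicate 5 the counts were 30 higher and 0 lower in 2D (12.7% and 10.5% of all genes) and 29 higher and 0 lower in 3D (13.7% and 14%). Leaving out 1 array at a time ended the 2D calls of PLSCR1 (for 21 of 23 arrays, adjusted p up to 0.105), IFITM2 (8 arrays, up to 0.087) and IFIT2 (WT 2D replicate 3 or ErbB2* 2D replicate 3, up to 0.0584). It ended the 3D calls of PARP14 (17 arrays, up to 0.0923), LGALS3BP (7, up to 0.0722), DTX3L (5, up to 0.0896) and IFIT1 (4, up to 0.0675), and no other call between the lines was lost in this way. Leaving out WT 2D replicates 2, 3 and 4 ended the 2D calls of IFIH1 (adjusted p = 0.325), IFIT2 (0.376), IFITM2 (0.259) and PLSCR1 (0.238), and leaving out replicates 1, 5 and 6 those of OAS1 (0.0519), OASL (0.175), IFITM2 (0.0641) and PLSCR1 (0.146). In 3D, SP100 did not pass when only the compared groups were fitted (adjusted p = 0.0928), nor did IFIT1, DTX3L, PARP14 and LGALS3BP, and IFIT2 did not pass in either culture with the deposited log2 values (0.0649 in 2D and 0.113 in 3D).

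The 2 cultures share no array but were tested in a single fit with a shared estimate of the spread, so their calls are not independent. Of the 41 genes 19 were higher in both, 5 in 2D and not in 3D, 9 in 3D and not in 2D, and 8 in neither (25, 5, 4 and 7 without WT 3D replicate 5). Over all genes, 7.78% were higher in 2D and 11.6% in 3D, and the share higher in both was not counted. Across the 41 genes, the difference in 3D and that in 2D had a Pearson correlation of 0.613 and a Spearman correlation of 0.56, against 0.248 and 0.0883 across all genes. Genes are not independent replicates, and these values are a description. Every ErbB2* array lay above every WT array for 23 of 41 genes in 2D (56.1%), against 6.71% of all genes. The same held for 19 of 41 in 3D (46.3%, against 7.91% of all genes), and for 25 (61%, against 11.4%) without WT 3D replicate 5. These counts include genes that met the detection rule only through ErbB2* arrays. In 2D they were OAS2 and MX1, and in 3D OAS2, IFIT2 and SAMD9L, with OASL too without WT 3D replicate 5. All such genes are also part of the medians and correlations above and of the mean below.

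**Figure D1:**
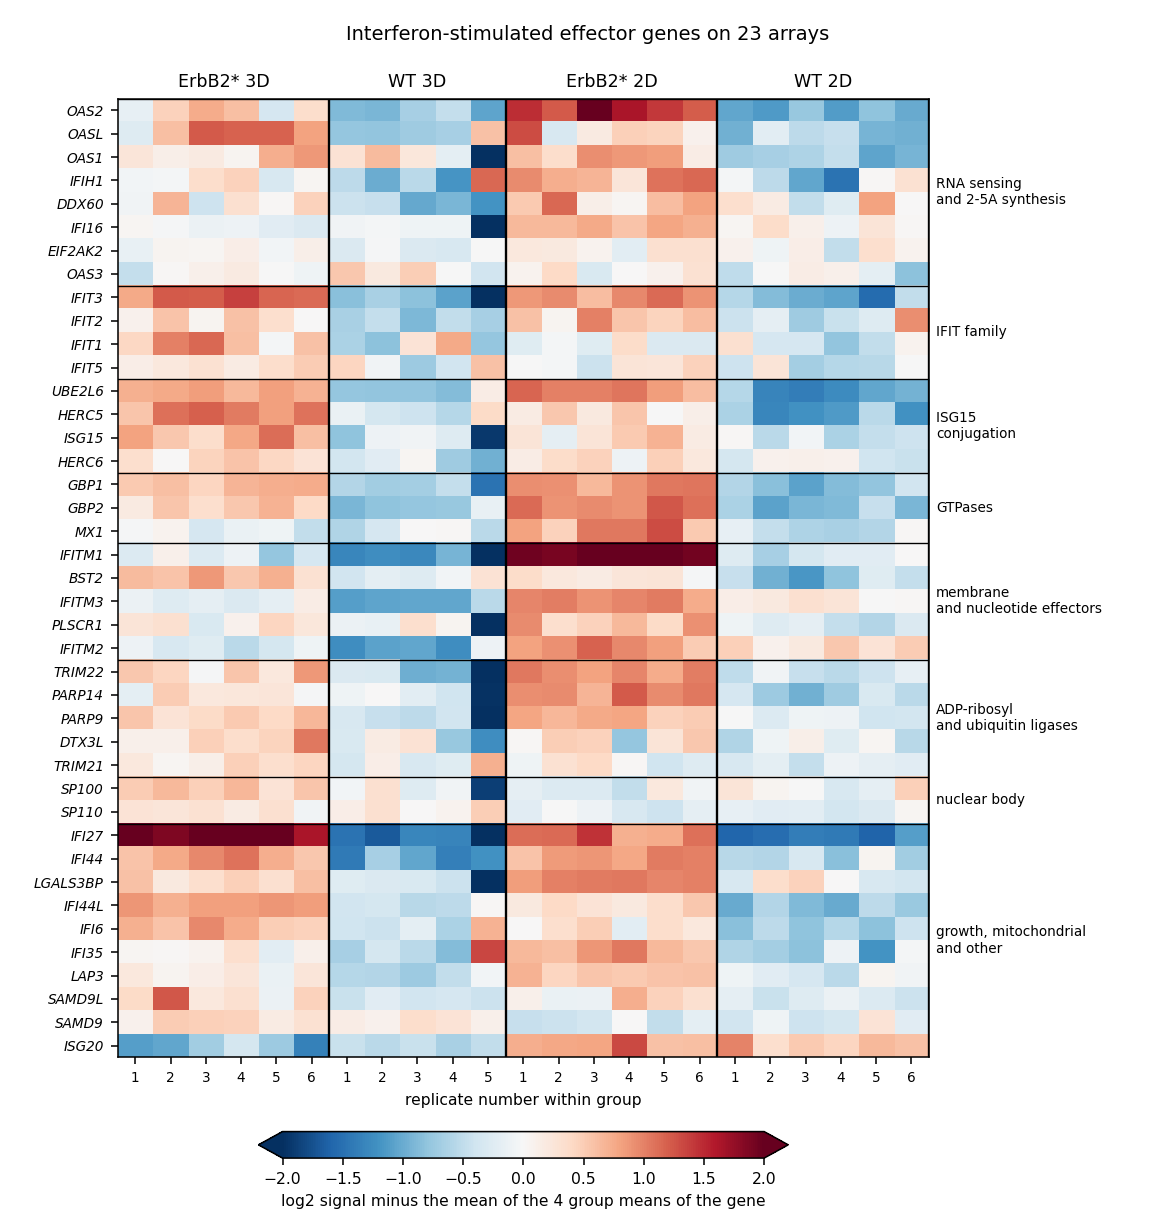
Log2 signal of the 41 measured genes (rows, by role) on 23 arrays (columns, by group and replicate number), minus the mean of the 4 group means of each gene, with colours held at 2 log2 units either way. Most rows are red in the ErbB2* blocks and blue in the WT blocks, IFITM1 is red in ErbB2* 2D, IFI27 in both ErbB2* blocks, and WT 3D replicate 5 departs from its group in both directions.

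The mean log2 signal over the 41 genes is a plain summary of the group. It was 8.01, 8.13 and 8.22 in ErbB2* 3D (lowest, median and highest of 6 arrays) and 8.29, 8.33 and 8.35 in ErbB2* 2D. In WT 3D it was 6.88 on replicate 5 and 7.25 to 7.36 on the other 4, and in WT 2D 7.27, 7.39 and 7.47. Every ErbB2* array was above every WT array, and the groups of 1 line were closer to each other than to the other line. In bulk RNA, fewer cells that express a gene and less RNA per cell cannot be told apart.

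**Figure D2:**
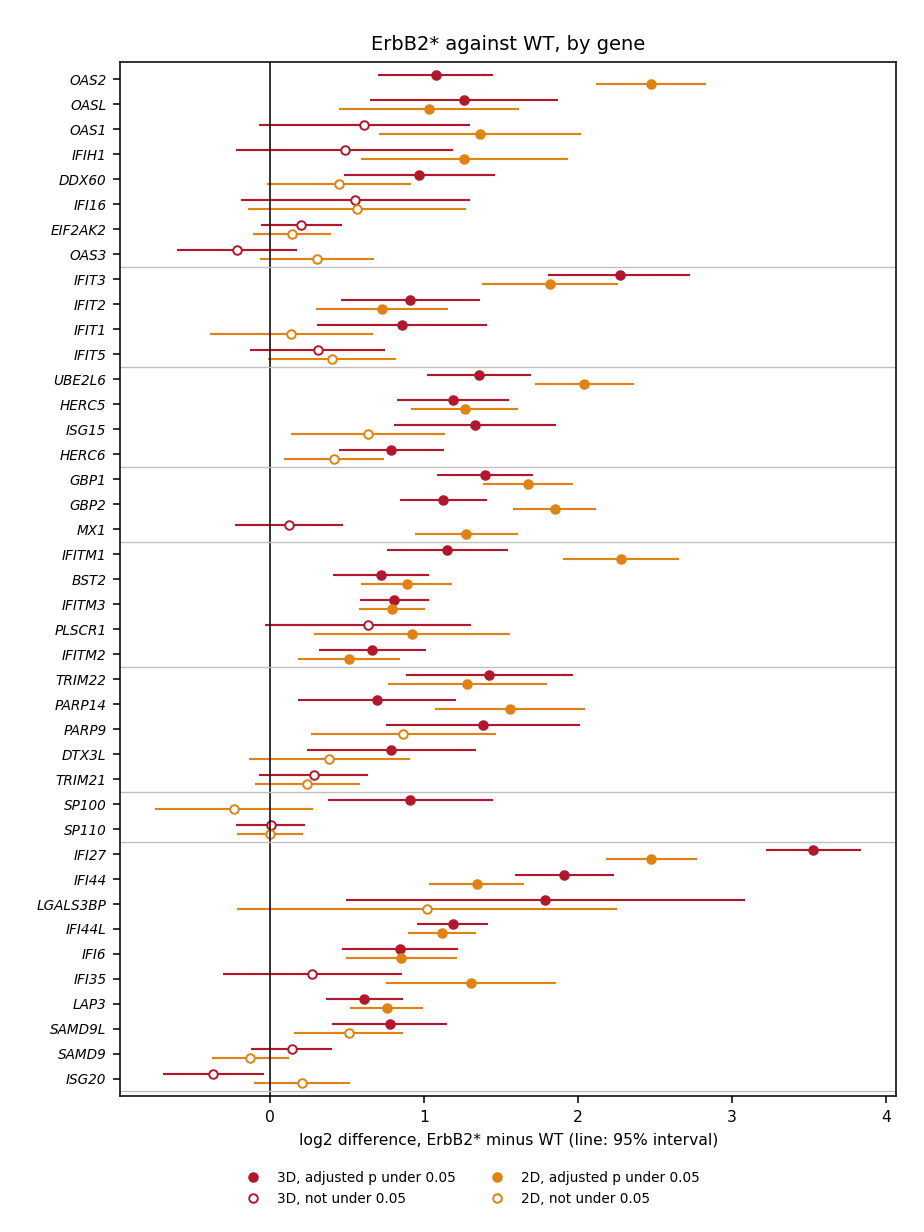
Log2 difference of ErbB2* minus WT for each gene in 3D (red) and in 2D (orange), with 95% intervals of the fit, filled where the adjusted p was under 0.05. Nearly all points lie right of 0, IFI27 lies farthest right in 3D and level with OAS2 in 2D, and fitted values of genes below background in WT cells are not bounds.

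Among the genes of RNA sensing and of 2-5A synthesis, 3 of 8 were higher in ErbB2* cells in 3D and 4 of 8 in 2D (4 and 5 without WT 3D replicate 5). OAS2, which makes the 2-5A messenger that activates RNase L, stood out in 2D. Its log2 signal was 5.30, 6.04 and 6.37 in ErbB2* 3D (lowest, median and highest of 6), against 4.74, 4.72, 4.96, 5.15 and 4.58 in WT 3D. In ErbB2* 2D it was 6.83, 7.07 and 7.67, against 4.50, 4.61 and 4.87 in WT 2D. No WT array in either culture detected the OAS2 probe used and all 12 ErbB2* arrays did, which is also how it met the detection rule. Other OAS2 probes were detected on 4, 1 and 0 arrays and did not meet it. They gave differences of 0.27, 0.08 and 0.11 in 3D and 0.20, 0.33 and 0.04 in 2D, so the OAS2 result rests on 1 probe. OAS2 was at least 3.92-fold higher in ErbB2* cells in 2D (adjusted p = 2.2e-10) and at least 1.27-fold higher in 3D (adjusted p = 9.86e-05). Such bounds set the mean of the brighter group against, for each dim array, the higher of the probe's own signal and the lowest signal detected there, and are given where a group was below background on most of its arrays. That lowest signal was 7.04 on WT 3D replicate 5, against 5.13 to 5.25 on the other WT 3D arrays. Bounds set against WT 3D are therefore smaller because of that array, and were not computed without it.

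OASL, a relative of the OAS enzymes that enhances RNA sensing, was at least 1.65-fold higher in 3D (adjusted p = 0.00299) and at least 1.59-fold higher in 2D (adjusted p = 0.014). OAS1, a further 2-5A synthetase, was 2.57-fold higher in 2D (1.36 ± 0.32 in log2 with its SE, adjusted p = 0.00401). For 3D, the value of OAS1 was 0.61 with WT 3D replicate 5 and 0.13 without it, and neither passed. Its 2 other measured probes gave differences of -0.54 and -0.24 in 3D, opposite in sign to the probe used, and of 0.30 and 1.15 in 2D. IFIH1, the cytosolic sensor MDA5, was 2.40-fold higher in 2D (adjusted p = 0.00898), and in 3D its difference was 0.49, or 0.88 and past the threshold (adjusted p = 0.015) without WT 3D replicate 5. DDX60, a helicase of the sensing pathway, was at least 1.32-fold higher in 3D (adjusted p = 0.00424). EIF2AK2, the double-stranded RNA-activated kinase PKR, and OAS3 did not pass in either culture, with differences of 0.21 and -0.21 in 3D and 0.14 and 0.31 in 2D. For IFI16, a DNA sensor, the difference of 0.57 in 2D did not pass with all arrays (adjusted p = 0.347) and passed without WT 3D replicate 5 (adjusted p = 1.03e-05). That replicate read 7.76 for IFI16 and the other 4 WT 3D arrays 10.76 to 10.80.

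In the IFIT family, whose products bind viral RNA that lacks the host's cap marks, 3 of 4 genes were higher in 3D and 2 of 4 in 2D. IFIT3, which stabilises the IFIT1 complex, led the family. Its log2 signal was 7.75, 8.18 and 8.37 in ErbB2* 3D, against 6.15, 6.35, 6.17, 5.93 and 4.74 in WT 3D. In ErbB2* 2D it was 7.62, 7.92 and 8.12, against 5.46, 6.07 and 6.51 in WT 2D. The lines did not overlap in either culture. The difference was 2.27 ± 0.22 in 3D (4.82-fold, adjusted p = 4.41e-08) and 1.82 ± 0.21 in 2D (3.53-fold, adjusted p = 9.26e-07). A second IFIT3 probe gave 1.74 and 1.55, and a dim further probe, detected on 5 arrays, 0.19 and 0.58. IFIT2 was at least 1.21-fold higher in 3D (adjusted p = 0.00336) and 1.66-fold higher in 2D (adjusted p = 0.0186). IFIT1 was at least 1.19-fold higher in 3D (adjusted p = 0.0231), and in 2D its difference was 0.14. IFIT5 passed in neither culture, with differences of 0.31 in 3D and 0.40 in 2D.

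ISG15 is a ubiquitin-like protein that is joined to target proteins by UBE2L6, its conjugating enzyme, and by HERC5, its main ligase in human cells. All 4 measured genes of this set were higher in ErbB2* cells in 3D, and 2 of 4 in 2D (4 of 4 without WT 3D replicate 5). UBE2L6 had log2 signals of 10.73, 10.83 and 10.92 in ErbB2* 3D, against 9.32, 9.30, 9.29, 9.23 and 10.23 in WT 3D. In ErbB2* 2D they were 10.71, 11.10 and 11.25, against 8.70, 8.94 and 9.51 in WT 2D. No ErbB2* array overlapped a WT array of its culture, and the nearest WT array was WT 3D replicate 5. UBE2L6 was 2.56-fold higher in 3D (1.36 ± 0.16, adjusted p = 1.13e-06) and 4.12-fold higher in 2D (2.04 ± 0.16, adjusted p = 1.01e-09), and its other measured probe gave 1.90 and 2.00.

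HERC5 was 2.28-fold higher in 3D (adjusted p = 2.08e-05) and 2.40-fold higher in 2D (adjusted p = 6.32e-06). ISG15 itself was 2.51-fold higher in 3D (1.33 ± 0.25, adjusted p = 0.000413). In 2D its difference of 0.64 did not pass with all arrays (adjusted p = 0.0919) and passed without WT 3D replicate 5 (adjusted p = 0.00492). HERC6, a relative of HERC5, was 1.73-fold higher in 3D (adjusted p = 0.00109), with a difference of 0.42 in 2D (adjusted p = 0.0886, and 0.0298 without that replicate).

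Of the interferon-induced GTPases, 2 of 3 were higher in 3D and 3 of 3 in 2D. GBP1, a guanylate-binding protein that coats intracellular pathogens and their vacuoles, had log2 signals of 8.35, 8.57 and 8.66 in ErbB2* 3D, against 7.34, 7.23, 7.24, 7.46 and 6.45 in WT 3D. In ErbB2* 2D it had 8.58, 8.85 and 9.0, against 6.86, 7.12 and 7.55 in WT 2D. The lines were apart on every array, by 2.63-fold in 3D (1.40 ± 0.15, adjusted p = 1.78e-07) and 3.19-fold in 2D (1.68 ± 0.14, adjusted p = 5.64e-09). GBP2, of the same family, was 2.18-fold higher in 3D (adjusted p = 1.1e-06) and 3.60-fold higher in 2D (adjusted p = 2.36e-10).

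MX1, a dynamin-like GTPase that blocks influenza and other viruses, differed between the lines in 2D. Its log2 signal was 5.81, 6.28 and 6.65 in ErbB2* 2D and detected on all 6 arrays, against 4.71, 4.82 and 5.38 in WT 2D, where 1 of 6 arrays detected it. It was at least 2.02-fold higher there (adjusted p = 3.2e-06). In 3D it was 4.87, 5.25 and 5.42 in ErbB2* cells, against 4.75, 5.01, 5.37, 5.38 and 4.81 in WT cells. These 3D values overlapped, and the difference of 0.12 ± 0.17 did not pass (adjusted p = 0.627).

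The membrane group holds the IFITM proteins, which hinder the fusion of viruses with cell membranes, BST2 (tetherin), which holds budding virus at the cell surface, and the scramblase PLSCR1. Of its 5 measured genes 4 were higher in ErbB2* cells in 3D and 5 in 2D. IFITM1 had log2 signals of 6.17, 6.67 and 7.04 in ErbB2* 3D, against 5.64, 5.71, 5.66, 6.02 and 4.55 in WT 3D. In ErbB2* 2D they were 8.84, 8.91 and 9.06, against 6.29, 6.70 and 6.95 in WT 2D. The ErbB2* 2D arrays stood above those of every other group, while ErbB2* 3D covered about the same range as WT 2D. IFITM1 was 2.22-fold higher in 3D (1.15 ± 0.19, adjusted p = 8.28e-05) and 4.85-fold higher in 2D (2.28 ± 0.18, adjusted p = 1.9e-09).

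IFITM3 had 12.43, 12.54 and 12.86 in ErbB2* 3D, against 11.62, 11.66, 11.68, 11.67 and 12.18 in WT 3D, and 13.46, 13.69 and 13.76 in ErbB2* 2D, against 12.71, 12.87 and 13.04 in WT 2D. The differences were 0.81 ± 0.11 in 3D (1.75-fold, adjusted p = 5.24e-06) and 0.79 ± 0.10 in 2D (1.73-fold, adjusted p = 4.84e-06), with no overlap. IFITM2 had 12.33, 12.59 and 12.78 in ErbB2* 3D, against 11.63, 11.79, 11.83, 11.62 and 12.77 in WT 3D, and 13.38, 13.73 and 14.05 in ErbB2* 2D, against 12.96, 13.24 and 13.41 in WT 2D. Its differences were smaller, 0.67 in 3D (1.59-fold, adjusted p = 0.00568) and 0.52 in 2D (1.43-fold, adjusted p = 0.0334), and the lines overlapped in both cultures. The 3 IFITM genes are close copies of one another, and whether a probe also bound the RNA of a neighbour was not tested. BST2 was 1.65-fold higher in 3D (adjusted p = 0.00102) and 1.85-fold higher in 2D (adjusted p = 8.74e-05). PLSCR1 was 1.90-fold higher in 2D, where its adjusted p lay at the threshold and was 1.2e-05 without WT 3D replicate 5, and its difference in 3D was 0.64 with that replicate and 0.14 without it.

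Among the ADP-ribosyltransferases PARP9 and PARP14, the PARP9 partner DTX3L and the ubiquitin ligases TRIM21 and TRIM22, 4 of 5 genes were higher in 3D and 2 of 5 in 2D (3 and 3 without WT 3D replicate 5). TRIM22 had log2 signals of 7.05, 7.56 and 7.94 in ErbB2* 3D, against 6.78, 6.76, 6.11, 6.14 and 4.61 in WT 3D. In ErbB2* 2D they were 7.82, 8.03 and 8.14, against 6.55, 6.64 and 7.01 in WT 2D. The lines were apart in both cultures, by 2.68-fold in 3D (adjusted p = 0.000269) and 2.43-fold in 2D (adjusted p = 0.000737). PARP9 was 2.61-fold higher in 3D (adjusted p = 0.00168), and 1.85-fold (0.89 in log2, adjusted p = 3.19e-07) without WT 3D replicate 5. In 2D its difference was 0.87 (adjusted p = 0.0502, and 9.38e-08 without that replicate). PARP14 was 2.94-fold higher in 2D (adjusted p = 3.88e-05). In 3D PARP14 (0.70, adjusted p = 0.0458) and DTX3L (0.79, adjusted p = 0.0342) passed with all arrays, and neither passed without WT 3D replicate 5 (0.34 and 0.57). TRIM21, the cytosolic antibody receptor, had differences of 0.28 in 3D and 0.24 in 2D that did not pass, although the 3D one did without that replicate (0.46, adjusted p = 0.0163).

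SP100 and SP110 are proteins of nuclear bodies. By the probe used, SP110 did not differ detectably between the lines, with differences of 0.01 ± 0.11 in 3D and 0.00 ± 0.10 in 2D. Its other measured probes gave 0.37, 0.21 and 0.25 in 3D and 0.10, 0.36 and 0.04 in 2D. SP100 had log2 signals of 6.98, 7.24 and 7.38 in ErbB2* 3D, against 6.66, 7.04, 6.45, 6.64 and 4.82 in WT 3D. In ErbB2* 2D they were 6.22, 6.48 and 6.92, against 6.40, 6.73 and 7.19 in WT 2D. SP100 was 1.88-fold higher in ErbB2* cells in 3D (0.91 ± 0.26, adjusted p = 0.0131), and the difference was 0.54 (adjusted p = 0.00814) without WT 3D replicate 5. In 2D it was -0.23 and did not pass, and the lines overlapped in both cultures.

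The remaining set holds IFI27, a small mitochondrial and endoplasmic reticulum protein, its relative IFI6, IFI44 and IFI44L, the growth regulators SAMD9 and SAMD9L, the exonuclease ISG20, IFI35, the secreted glycoprotein LGALS3BP and the aminopeptidase LAP3. Of these 10, 7 were higher in ErbB2* cells in 3D and 6 in 2D (8 and 8 without WT 3D replicate 5). IFI27 had the largest fitted difference of the 41 genes in 3D, and in 2D it shared that place with OAS2 (2.47). Its log2 signal was 8.23, 8.61 and 8.81 in ErbB2* 3D, against 5.12, 4.92, 5.30, 5.29 and 4.57 in WT 3D, where 2 of 5 arrays detected it. In ErbB2* 2D it was 7.32, 7.71 and 8.05, against 5.00, 5.13 and 5.50 in WT 2D, where 3 of 6 arrays detected it. IFI27 was at least 7.87-fold higher in 3D (adjusted p = 3.67e-14) and 5.56-fold higher in 2D (2.48 ± 0.14, adjusted p = 7.35e-12).

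IFI44 had log2 signals of 8.33, 8.53 and 8.87 in ErbB2* 3D, against 6.38, 7.12, 6.75, 6.43 and 6.59 in WT 3D, and 8.36, 8.66 and 8.84 in ErbB2* 2D, against 6.97, 7.23 and 7.85 in WT 2D. It was 3.76-fold higher in 3D (1.91 ± 0.16, adjusted p = 1.94e-09) and 2.53-fold higher in 2D (1.34 ± 0.15, adjusted p = 4.09e-07). IFI44L was 2.28-fold higher in 3D (adjusted p = 2.67e-08) and 2.17-fold higher in 2D (adjusted p = 4.38e-08), and IFI6 was 1.80-fold and 1.81-fold higher (adjusted p = 0.00138 and 0.00117). LAP3 was 1.53-fold and 1.69-fold higher (adjusted p = 0.00054 and 3.59e-05). IFI35 was 2.47-fold higher in 2D (adjusted p = 0.00126), and in 3D its difference was 0.28, or 0.67 and past the threshold (adjusted p = 0.0057) without WT 3D replicate 5.

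LGALS3BP shows how far that 1 array can move a value. It read 4.49 on WT 3D replicate 5 and 9.66 to 9.84 on the other 4 WT 3D arrays, against 10.28 to 10.69 in ErbB2* 3D. The 3D difference was 1.79 (adjusted p = 0.0424) with it and 0.73 (adjusted p = 0.000288) without it, and the 2D difference of 1.02 passed without it (adjusted p = 9.64e-07) and not with it (adjusted p = 0.328). SAMD9L passed in 3D (adjusted p = 0.00264), with 4 of 6 ErbB2* arrays and 0 of 5 WT arrays detecting it, so that it was tested only because of the ErbB2* arrays and lay too close to background for a fold. SAMD9 and ISG20 passed in neither culture, with differences of 0.14 and -0.36 in 3D and -0.13 and 0.21 in 2D.

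**Figure D3:**
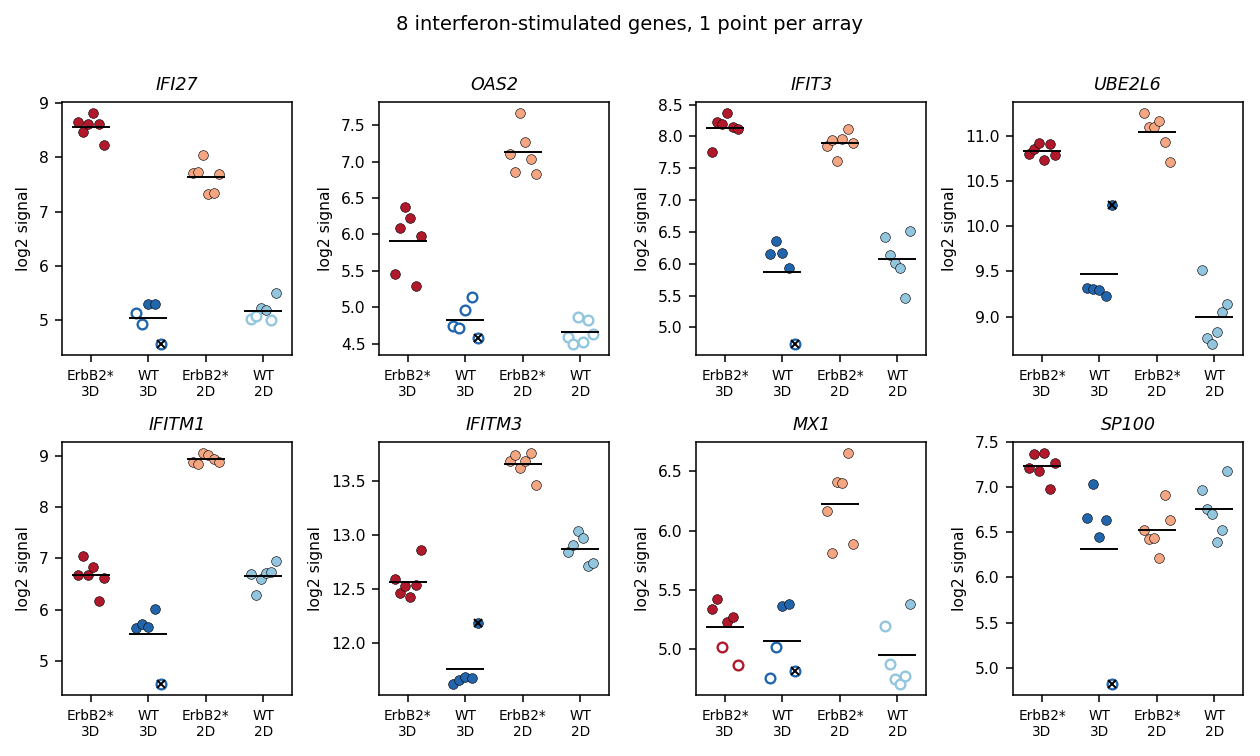
Log2 signal of 8 genes, 1 point per array, with the mean of each group as a line, open points where the probe was below background (detection p of 0.05 or more), a cross on WT 3D replicate 5, and a separate axis range in each panel. IFI27, IFIT3 and UBE2L6 separate the lines in both cultures, MX1 is raised in ErbB2* 2D, and IFITM1 and IFITM3 are lower in 3D than in 2D in both lines.

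Culture moved the group less, and in both directions. In ErbB2* cells, 8 of 41 genes were higher in 3D than in 2D and 9 were lower (19.5% and 22%), against 10.3% and 12.1% of all genes. In WT cells 6 were higher and 6 lower (14.6% each), against 14.3% and 15.3% of all genes, shares close to the background. The median difference of the 41 genes was -0.19 in ErbB2* cells and -0.077 in WT cells, against -0.020 and -0.058 over all genes. Without WT 3D replicate 5 ErbB2* cells had 10 higher and 16 lower (background 17.1% and 19.2%) and 8 higher and 7 lower in WT cells (background 17.1% and 16.6%). With arrays scaled by their medians in place of quantiles, 1 was higher and 9 lower in ErbB2* cells and 0 and 6 in WT cells, and the median of all genes shifted to -0.14 and -0.34.

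IFITM1, IFITM2, IFITM3 and ISG20 were lower in 3D than in 2D in both lines. IFITM1 fell by 2.27 on the log2 scale in ErbB2* cells (adjusted p = 1.74e-09) and by 1.15 in WT cells (adjusted p = 8.41e-05). IFITM2 fell by 1.14 (adjusted p = 1.08e-05) and by 1.28 (adjusted p = 3.71e-06), and IFITM3 by 1.09 (adjusted p = 2.77e-08) and by 1.11 (adjusted p = 4.73e-08). The 3D and 2D arrays of the IFITM genes did not overlap in either line.

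ISG20, an exonuclease that degrades single-stranded RNA, had log2 signals of 5.90, 6.38 and 6.91 in ErbB2* 3D, against 7.84, 8.01 and 8.58 in ErbB2* 2D. In WT 3D they were 6.82, 6.72, 6.82, 6.61 and 6.76, against 7.60, 7.81 and 8.26 in WT 2D. Cultures were apart in both lines while lines overlapped in both cultures, unlike the 23 genes of the group whose lines were apart in 2D. The pattern was not particular to ISG20, since IFITM2 had it too, although its lines overlapped in 3D only through WT 3D replicate 5 (12.77). ISG20 was lower in 3D by -1.68 ± 0.15 in ErbB2* cells (adjusted p = 1.3e-08) and by -1.10 ± 0.16 in WT cells (adjusted p = 1.35e-05).

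In ErbB2* cells the other genes lower in 3D were OAS2 (-1.22, adjusted p = 9.84e-06), MX1 (-1.03, adjusted p = 4.13e-05), PARP14 (-0.80, adjusted p = 0.0159), GBP2 (-0.59, adjusted p = 0.0016) and LAP3 (-0.43, adjusted p = 0.00717). The calls of GBP2 (adjusted p = 0.0597) and LAP3 (0.27) were lost with median scaling. Higher in 3D in ErbB2* cells were IFI27 (0.92, adjusted p = 3.49e-05), IFIT1 (0.74, adjusted p = 0.0379), HERC5 (0.71, adjusted p = 0.00317), SP100 (0.70, adjusted p = 0.0428), SAMD9 (0.66, adjusted p = 0.000266), IFI44L (0.50, adjusted p = 0.00127), SP110 (0.41, adjusted p = 0.00472) and BST2 (0.40, adjusted p = 0.0489). Leaving out 1 array at a time ended the ErbB2* calls of BST2 (for 17 arrays, adjusted p up to 0.116), SP100 (11, up to 0.0908) and IFIT1 (9, up to 0.097). With median scaling IFI27 alone of these 8 was called higher. In WT cells HERC5, BST2, UBE2L6, IFI44L, SP110 and SAMD9 were higher in 3D, by 0.39 to 0.78, and IFI44 (-0.65, adjusted p = 0.00305) and DDX60 (at least 1.25-fold, adjusted p = 0.00631) were lower beside the IFITM genes and ISG20. The call of UBE2L6 was lost without WT 3D replicate 5 (0.29, adjusted p = 0.0894) or without any of 3 WT 2D arrays, and that of SAMD9 without any of 4 WT arrays (adjusted p up to 0.0586). The other measured probe of IFI44L gave -0.17 in WT cells and that of UBE2L6 0.098. With the mean over each gene's measured probes, both WT calls were lost (IFI44L 0.13, adjusted p = 0.443, and UBE2L6 0.29, adjusted p = 0.103). Leaving out WT 2D replicates 2, 3 and 4 ended the WT calls of HERC5, BST2, UBE2L6, SP110 and SAMD9, and leaving out replicates 1, 5 and 6 that of DDX60 (adjusted p = 0.0989). None of these 6 was called higher with median scaling, where UBE2L6 (-0.05), SP110 (-0.15), SAMD9 (-0.10) and IFI44L (-0.12) had the opposite sign.

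**Figure D4:**
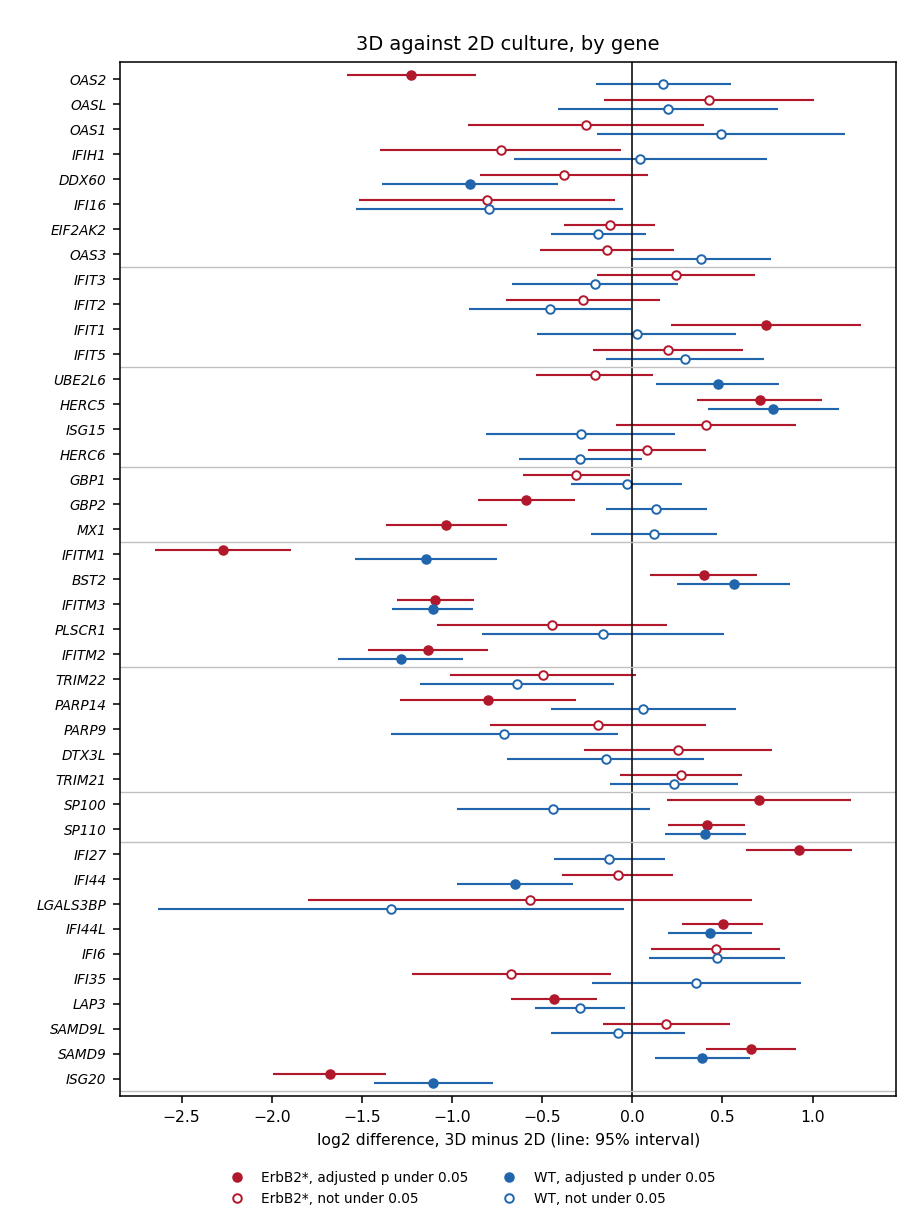
Log2 difference of 3D minus 2D for each gene in ErbB2* cells (red) and in WT cells (blue), with 95% intervals of the fit, filled where the adjusted p was under 0.05. IFITM1, IFITM2, IFITM3 and ISG20 lie left of 0 in both lines, OAS2 and MX1 do so in ErbB2* cells, and IFI27 lies right of 0 in ErbB2* cells.

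The test of whether the culture difference itself differed between the lines (ErbB2* minus WT) called 2 of 41 genes positive and 5 negative (4.88% and 12.2%), against 6.73% and 8.33% of all genes. Without WT 3D replicate 5 it called 2 and 10 (9.76% and 11.8% of all genes), and with median scaling 0 and 3. OAS2 (-1.40 ± 0.25, adjusted p = 0.000361), MX1 (-1.15 ± 0.23, adjusted p = 0.00134) and IFITM1 (-1.12 ± 0.26, adjusted p = 0.00471) had the largest negative values. For OAS2 and MX1 the WT levels lay below background on most arrays in both cultures, so a change in WT cells could not be measured. GBP2 (-0.72, adjusted p = 0.0106) and UBE2L6 (-0.68, adjusted p = 0.044) were also negative. IFI27 was positive (1.05 ± 0.21, adjusted p = 0.00101), and so was SP100 (1.14 ± 0.36, adjusted p = 0.0326), whose value was 0.77 without WT 3D replicate 5 (adjusted p = 0.00684). IFI27 was detected on 3 of 6 WT 2D and 2 of 5 WT 3D arrays, near background, so a change in WT cells could hardly be measured for it either. Leaving out 1 array at a time ended the interaction calls of UBE2L6 (for 14 arrays, adjusted p up to 0.0802) and SP100 (5, up to 0.0572) and of no other gene, and with median scaling neither these 2 nor IFI27 (adjusted p = 0.064) nor GBP2 (-0.40, adjusted p = 0.772) passed. The GBP2 call was also lost without WT 2D replicates 2, 3 and 4 (adjusted p = 0.102). That of UBE2L6 was also lost with the mean over its measured probes (-0.39, adjusted p = 0.169).

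Upstream of the effector genes, 37 genes of the interferon pathway were listed and 22 could be tested. Between the lines 4 of 22 were higher and 2 lower in ErbB2* cells in 3D, and 6 higher and 2 lower in 2D (5 and 2, and 7 and 3, without WT 3D replicate 5). In 3D these were 18.2% and 9.09%, beside 11.6% and 10.7% of all genes, and in 2D 27.3% and 9.09%, beside 7.78% and 5.33%. The probes of the 9 interferon genes (IFNA1, IFNA2, IFNB1, IFNE, IFNG, IFNK, IFNL1, IFNL2 and IFNL3) were detected on at most 1 of 23 arrays. At this sensitivity no interferon RNA had a level in any group, which does not show that it was absent. Of the 6 receptor genes, IFNGR2 was higher in ErbB2* cells in both cultures (0.79, adjusted p = 0.000132, in 3D and 0.43, adjusted p = 0.0279, in 2D) and IFNGR1 in 2D (0.79, adjusted p = 7.2e-06). IFNAR1, IL10RB and IFNLR1 passed in neither, and IFNAR2 passed in 3D without WT 3D replicate 5 (0.33, adjusted p = 0.0366) and not with it. Among the kinases, JAK1 and JAK2 did not pass with all arrays, JAK1 was lower in 2D without WT 3D replicate 5 (-0.68, adjusted p = 0.00422), and TYK2 was lower in 3D (-0.59, adjusted p = 0.0131).

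The factors differed most. IRF9, a DNA-binding subunit of the complex named above, had log2 signals of 8.45 to 8.97 in ErbB2* 3D, against 6.99, 6.81, 6.80, 7.24 and 5.39 in WT 3D, and 8.63 to 9.0 in ErbB2* 2D, against 7.06 to 7.61 in WT 2D. The differences were 2.06 in 3D (adjusted p = 1.61e-07) and 1.33 in 2D (adjusted p = 5.7e-05), with no overlap. IRF1 had 9.14 to 10.94 in ErbB2* 3D, against 7.37, 7.06, 7.04, 7.04 and 9.20 in WT 3D, and 9.41 to 9.78 in ErbB2* 2D, against 8.37, 6.01, 6.04, 7.05, 8.13 and 8.14 in WT 2D. Its differences were 2.48 in 3D (adjusted p = 0.00022) and 2.31 in 2D (adjusted p = 0.000431), and WT 3D replicate 5 was the WT array that reached into the ErbB2* range. In WT 2D, replicates 1, 5 and 6 (8.13 to 8.37) lay above replicates 2, 3 and 4 (6.01 to 7.05). The size of the IRF1 difference in 2D therefore depends on which of these arrays are counted. IRF7 was 0.71 higher in 3D (adjusted p = 0.0294, and 0.0742 without WT 3D replicate 5) and 0.67 higher in 2D (adjusted p = 0.0451). IRF3, which is activated by phosphorylation, was lower in 2D (-0.47, adjusted p = 0.0289).

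**Figure D5:**
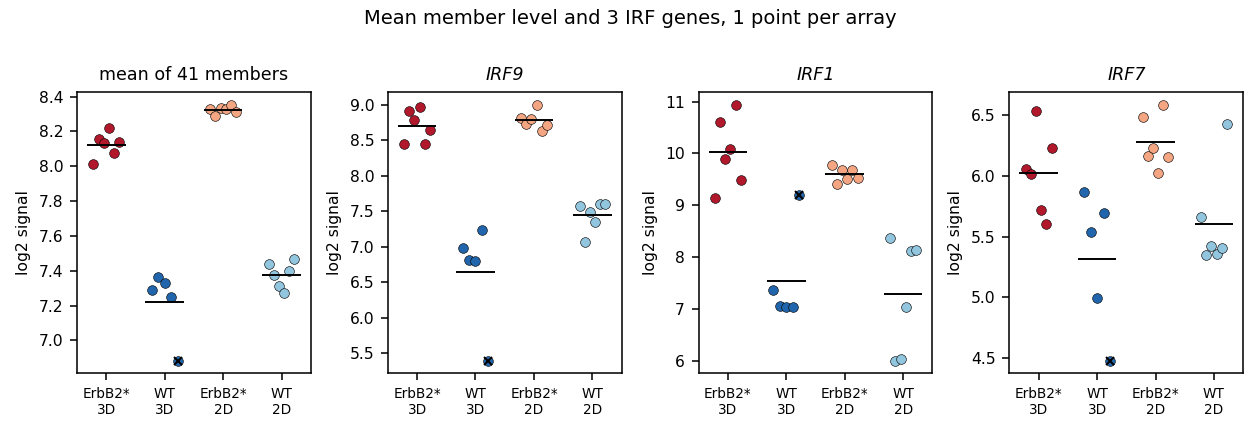
Mean log2 signal of the 41 genes and log2 signals of IRF9, IRF1 and IRF7, 1 point per array, with group means as lines, a cross on WT 3D replicate 5 and a separate axis range in each panel. The mean of the group and IRF9 separate the lines in both cultures, while IRF1 does so except for WT 3D replicate 5 and IRF7 overlaps.

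Among the sensors and adaptors, TLR3 was higher in 2D (0.73, adjusted p = 0.0335) and MAVS lower (-0.84, adjusted p = 0.0333). None of the 7 tested passed in 3D with all arrays, and RIGI, the cytosolic RNA sensor, did without WT 3D replicate 5 (0.67, adjusted p = 0.00269). Of the inhibitors PTPN6 was lower in ErbB2* cells in 3D (-0.92, adjusted p = 0.00859), PIAS1 did not pass, and SOCS1 and SOCS3 were detected on at most 3 arrays.

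Markers of blood cells did not separate the lines as a list. PTPRC, the pan-leukocyte surface protein, was detected on at most 1 array, and ITGAM, TYROBP, CD2 and NKG7 on 0. Of 14 leukocyte markers 4 could be tested, and in each culture 1 was higher in ErbB2* cells (CD14, by 1.08 in 3D and 2.07 in 2D) and 1 lower (CSF1R, at -1.99 and -1.75). Their mean log2 level was 6.67 to 7.40 in ErbB2* 3D, against 7.0 to 7.79 in WT 3D, and 6.20 to 6.61 in ErbB2* 2D, against 6.07 to 6.57 in WT 2D. None of 4 markers of plasmacytoid dendritic cells, the main interferon producers of blood, could be tested. Of 3 fibroblast markers tested, DCN was higher in both cultures (1.88 in 3D and 0.78 in 2D), LUM was higher and COL1A1 lower in 3D (1.19 and -1.01). Of 2 endothelial markers tested, PECAM1 was higher in both (1.18 and 0.68). The part of these differences in the results above was not tested. Of 12 epithelial markers 9 were tested, and KRT5, ITGB4 and LAMB3 were among those detected on all 23 arrays. Of those 9 tested, 5 were lower and 1 higher in ErbB2* cells in 3D (6 and 1 without WT 3D replicate 5). In 2D 7 were lower and 1 higher. Over all genes 10.7% were lower and 11.6% higher in 3D, and 5.33% and 7.78% in 2D. CDH1 had the largest difference of the 9 in 3D (-3.01) and KRT14 in 2D (-2.86), and both were lower in both cultures. KRT5, ITGB4 and LAMB3 were themselves among the 7 lower in 2D, and KRT8 was the marker higher in each culture.

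Genes whose promoter windows held the response element letters can be set beside the others. The 27 measured genes of the group with a match had median line differences of 0.81 in 3D and 0.87 in 2D, and the 8 without one 0.70 and 0.54. Over all tested genes in the promoter table, the 365 with a match had medians of 0.074 and 0.12 and the 8614 without one 0.028 and 0.0081. Among the printed examples, UBE2L6, without a match, had larger differences than IFITM3 or IFI6, which had 2 and 3. These values are a description and no test was made.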

How the data were processed

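The deposited scanner table gave, per the file headers, the mean bead intensity of each probe and its detection p-value on 23 arrays, without normalisation. The authors also deposited log2 values, with processing not given in the sources used here. These were used as an alternative. Of 48803 probes, 28098 had 1 gene symbol in the platform annotation, 13 several and 20692 none listed. Intensities were background corrected and quantile normalised with neqc (limma 3.58.1, R 4.3.3, offset 16, negative-control signal inferred from detection p-values), and log2 values were taken. Probes with a detection p under 0.05 on at least 5 arrays were kept (17689), and the brightest of each gene was tested. A means model of the 4 groups with 19 residual degrees of freedom was fitted with lmFit and eBayes. P-values were adjusted over 10954 genes by Benjamini-Hochberg at 0.05. The procedure was tested on simulated data with known changes.

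The genes and lists were chosen with earlier results of these data known. The genes named are the members of these lists. Alternatives were the background correction, scaling, deposited values, detection filters and the mean over a gene's passing probes. Array weights, a fit of the compared groups only, a replicate block and each array left out were also run. A further 5 were chosen after seeing the data. Over the groups as a whole, same-numbered replicates did not deviate together (6 of 33 pairs had a correlation over 0.1, range -0.19 to 0.18). The numbers were therefore not taken to pair samples. Most of those 6 were pairs of WT 2D with WT 3D (-0.125, 0.181, 0.136, 0.141 and 0.174 for replicates 1 to 5), and a pairing within WT alone was not tested. The headers give no slide. RefSeq promoter sequences are those of GRCh38.p14.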

Additional observations from a re-analysis of the deposited data

Results flagged for a closer look

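WT 3D replicate 5 lay far from the other 4 arrays of its group in the mean of the 41 genes (6.88, others 7.25 to 7.36) and in 7 single genes. It was low for IFITM1 (4.55, others 5.64 to 6.02), IFIT3 (4.74, others 5.93 to 6.35), SP100 (4.82, others 6.45 to 7.04) and GBP1 (6.45, others 7.23 to 7.46). It was high for IFITM2 (12.8, others 11.6 to 11.8), IFITM3 (12.2, others 11.6 to 11.7) and UBE2L6 (10.2, others 9.23 to 9.31). In the ErbB2* groups, ISG20 was high on 2D replicate 4 (8.58, others 7.84 to 8.05) and IFITM3 on 3D replicate 6 (12.9, others 12.4 to 12.6). Of 56 groups of values tested 10 stood out in this way, where chance gives about 1 in 20.

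The culture difference (3D minus 2D) in ErbB2* cells differed from that in WT cells by the interaction test for 7 genes. It was lower for OAS2 (-1.4), MX1 (-1.15), IFITM1 (-1.12), GBP2 (-0.721) and UBE2L6 (-0.683), and higher for SP100 (1.14) and IFI27 (1.05).

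The deposited log2 column of WT 3D replicate 5 had a rank correlation of 0.503 with its own scanner column, against 1 for the other 22 arrays. A separate measure was the correlation of that deposited column with the deposited values of each group. It was 0.9954 for the other 4 WT 3D arrays. For the other groups it ran from 0.9621 (ErbB2* 2D) to 0.9747 (ErbB2* 3D), so it was high for every group.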

How the results depend on the processing

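Of the 41 genes none had a line difference of opposite sign to its call under any alternative run, and the counts between the lines stayed within 1.5 times. The median line difference moved without background correction (0.69 in 2D and 0.48 in 3D), with normexp at offset 50 (0.71 and 0.58), with median scaling (1.11 and 1.06, and 1.11 in 2D without WT 3D replicate 5), and with the deposited log2 values (0.53 and 0.25, or 0.53 and 0.27 without that replicate). Median scaling moved the median of all genes to 0.20 in 2D and 0.40 in 3D between the lines, and to -0.34 in WT and -0.14 in ErbB2* between cultures. Under it the medians of the 41 genes were -0.23 in WT, -0.33 in ErbB2* (also -0.33 without WT 3D replicate 5) and 0.24 for the interaction. It called 6 genes by culture in WT, 10 in ErbB2* and 3 by the interaction (12 without that replicate), and gave UBE2L6 (-0.048), SP110 (-0.15), SAMD9 (-0.100) and IFI44L (-0.12) the opposite sign in WT.

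The culture counts in ErbB2* and the interaction counts were the least stable. They were 27 and 14 with the deposited values (28 and 14 without WT 3D replicate 5), 26 and 15 with array weights, 26 and 12 with that replicate left out before normalisation, and 26 for culture in ErbB2* with the compared groups only, which gives no interaction. Leaving out WT 2D replicates 2, 3 and 4 gave 4 interaction calls. Leaving out 1 array at a time gave 21 to 30 calls between the lines in 2D, 24 to 29 in 3D, 10 to 15 by culture in WT, 14 to 26 in ErbB2* and 5 to 12 for the interaction. The calls over all 10954 genes moved too. They were 1214 to 2543, 2073 to 3038, 2772 to 3692, 2176 to 3971 and 1386 to 2359 in that order, so such shifts were not particular to the group. The cause of these changes was not tested. With the replicate number as a block there were 23, 27, 11, 16 and 6 calls in the same order, and no count moved by over 1.5 times. No slide block was run. Probes near background, as OAS2, OASL, MX1, SAMD9L and IFI27 in WT cells, limit the smallest difference that could be seen.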
